A study of Fragaria vesca with 24 samples.

Results

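The freezing tolerance interval on chromosome Fvb2 of woodland strawberry (*Fragaria vesca*) holds 896 predicted genes. Of those that lost nearly all of their transcripts in crowns of ‘Alta’ after cold treatment, 4 were selected. They were FvH4_2g12511 (hAT dimerization-like protein), FvH4_2g15840 (N-acetylserotonin O-methyltransferase, ASMT), FvH4_2g14690 (acyl-[acyl-carrier-protein] gene) and FvH4_2g11900 (nitronate monooxygenase-like), of 34006 genes in the count table. The genes were selected on their measured counts in ‘Alta’ crowns (expressed at 0 h, at or near 0 at 42 d), so their levels in ‘Alta’ crowns, and every contrast between crowns that uses those libraries, are given as a description with no test. Tests were kept to ‘NCGR1363’ crowns and to leaves.

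The study set the parents of a mapping population side by side: ‘Alta’, a freezing tolerant accession from northern Norway, and ‘NCGR1363’, a susceptible South American accession. Plants were grown from rooted runners, so the plants of each parent are clonal. Crown and leaf were sampled from untreated plants (0 h) and from plants held at 2 °C for 42 d, which gave 8 groups of 3 libraries: ‘Alta’ crown, ‘Alta’ leaf, ‘NCGR1363’ crown and ‘NCGR1363’ leaf, each at 0 h and at 42 d. Each parent is a single genotype, and the untreated plants were sampled at 0 h only, so the cold and the 42 d that passed cannot be told apart. Nor can the shorter day length under which, by the study's methods, plants were acclimated.

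The crown is the short, compressed stem of a strawberry plant, which carries the buds that must survive winter, while the leaves can be replaced. Plants acclimate to low, non-freezing temperatures by remodelling membranes, protective proteins and metabolism, and many transcripts rise or fall in the process. The 4 genes carry descriptions of unrelated kinds. hAT proteins derive from transposases of mobile elements. O-methyltransferases such as ASMT add methyl groups to small molecules (ASMT makes melatonin in the plants where it has been studied). Acyl carrier proteins hold growing fatty acid chains in plastids, but the name of FvH4_2g14690 does not say whether it encodes such a carrier. Nitronate monooxygenases oxidise nitronates, the anions of nitroalkanes.

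Library totals ranged from 12818719 to 18487934 counts. The library labelled ‘Alta’ crown 42 d replicate 3 went against its label: across 20669 genes its profile correlated at r = 0.980 to 0.990 with the ‘Alta’ leaf 0 h libraries but only at 0.713 to 0.731 with the other ‘Alta’ crown 42 d libraries. Its 4 photosynthetic marker genes (chloroplastic fructose-1,6-bisphosphatase, ATP synthase delta chain, carbonic anhydrase 2-like and thioredoxin M-type) summed to a CPM (the usual unit of counts scaled to library size) of 2090, against 24.7 to 40.7 CPM in the other 11 crown libraries and 699 to 2320 CPM in the 12 leaf libraries. The crown label therefore held for those 11 libraries, although one marker, carbonic anhydrase 2-like, was at 0 in both remaining ‘Alta’ crown 42 d libraries. Values for ‘Alta’ crowns at 42 d rest on replicates 1 and 2 unless stated, with replicate 3 given apart.

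**Figure D1:**
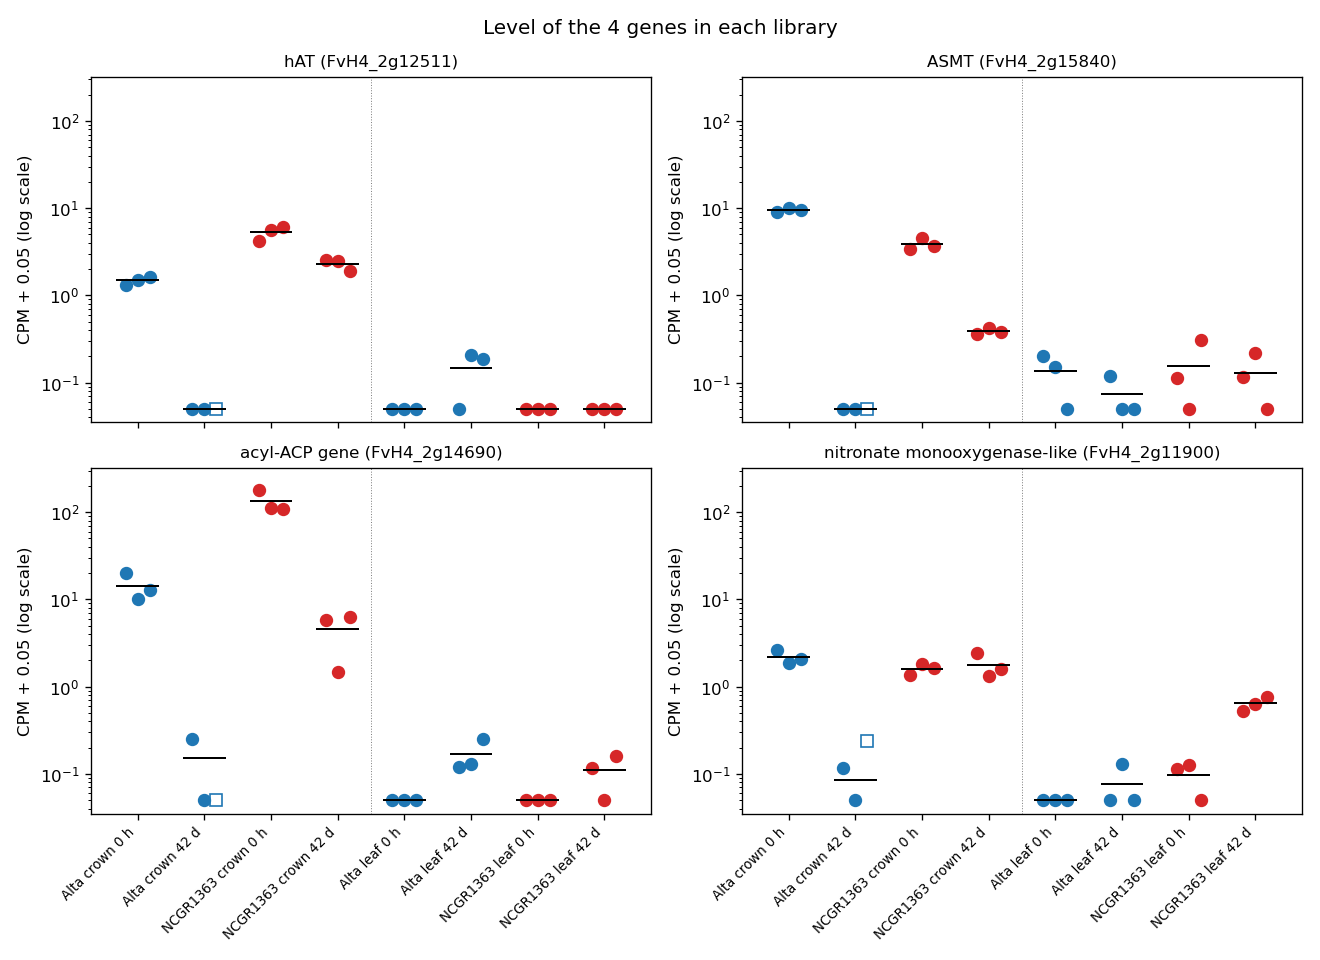
Level of the 4 genes in each of the 24 libraries, as CPM + 0.05 on a log axis, with blue points for ‘Alta’, red points for ‘NCGR1363’ and a bar at the group mean; the open square is ‘Alta’ crown 42 d replicate 3, which the mean leaves out. All 4 genes sat above 1 CPM in every untreated crown library, and in ‘Alta’ crowns at 42 d no library held more than 3 counts.

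The hAT dimerization-like gene FvH4_2g12511, whose deposited annotation is that of an uncharacterized protein, was a low-level crown transcript. Its counts in ‘Alta’ crowns at 0 h were 23, 25 and 26 (1.43 ± 0.153 CPM, SD, n = 3). At 42 d both libraries held 0 counts, and replicate 3 also held 0. In ‘NCGR1363’ crowns the counts were 79, 100 and 106 at 0 h (5.25 ± 0.97 CPM, n = 3) and 48, 40 and 39 at 42 d (2.27 ± 0.351 CPM, n = 3). The groups did not overlap: untreated ‘NCGR1363’ crowns were highest, treated ‘NCGR1363’ crowns stayed above untreated ‘Alta’ crowns, and treated ‘Alta’ crowns had none.

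The summed counts of FvH4_2g12511 in ‘Alta’ crowns were at least 15.5-fold higher at 0 h than at 42 d. Here and below, such a limit takes 3 counts over the group as what a count of 0 allows. It leaves out the counting error of the other group, so exact 95% lower bounds are lower (12.3 here). By the 3-count limit at most 6.44% of the untreated level was left (exact upper bound 8.12%). In ‘NCGR1363’ crowns 43% was left (95% interval 34.6 to 53.2%, exact, for counting error only). ‘NCGR1363’ exceeded ‘Alta’ by 3.66-fold (2.83 to 4.79) at 0 h and by at least 24.4-fold at 42 d. In the test of ‘NCGR1363’ crowns alone, transcript accumulation fell by 1.21 on the log2 scale (fitted log2 fold change -1.21, SE 0.21, edgeR FDR 0.00065), a larger difference than the spread between replicates. In bulk tissue, fewer cells of a type and less RNA per cell cannot be told apart, which holds for every level given here.

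ASMT (FvH4_2g15840) was the member with the most even replicates in untreated ‘Alta’ crowns, with 163, 170 and 156 counts (9.44 ± 0.505 CPM, n = 3). Both ‘Alta’ crown libraries at 42 d, and replicate 3, held 0 counts. ‘NCGR1363’ crowns had 63, 81 and 64 counts at 0 h (3.82 ± 0.595 CPM, n = 3) and 6, 6 and 7 counts at 42 d (0.338 ± 0.0294 CPM, n = 3). Here the untreated order was the opposite of that of the hAT gene, with every ‘Alta’ library above every ‘NCGR1363’ library, and after cold the order of the genotypes turned over.

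For ASMT (FvH4_2g15840), the 0 h level in ‘Alta’ crowns was at least 103-fold that at 42 d (exact lower bound 83.2), which leaves at most 0.974%. In ‘NCGR1363’ crowns 8.81% (5.2 to 14.1%) of the untreated level was left. The ratio of ‘NCGR1363’ to ‘Alta’ was 0.404 (0.342 to 0.476) at 0 h. At 42 d ‘NCGR1363’ was at least 3.66-fold higher by the 3-count limit, on 19 counts against 0 (exact lower bound 2.69). The fall in ‘NCGR1363’ crowns passed the test at a log2 fold change of -3.48 (SE 0.29, edgeR FDR 3.7e-06). All treated libraries lay under 0.5 CPM, the level the test requires in at least 2 libraries, so a call could only be a fall. The name ASMT is that used in the study's text. Deposited annotation instead gives FvH4_2g15840 a coclaurine O-methyltransferase-like description. The interval gene FvH4_2g15880 has the same description. Whether reads were split between them was not tested.

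The acyl-[acyl-carrier-protein] gene FvH4_2g14690, whose deposited description breaks off after “acyl-”, was the most abundant of the 4 per length of coding sequence, and in untreated crowns the most variable between replicates. Untreated ‘Alta’ crowns held 360, 170 and 211 counts (14.2 ± 5.07 CPM, n = 3), and ‘Alta’ crowns at 42 d held 3 and 0, with 0 in replicate 3. Untreated ‘NCGR1363’ crowns held 3407, 2013 and 1902 counts (133 ± 40.4 CPM, n = 3), and treated ones 112, 23 and 131 (4.49 ± 2.67 CPM, n = 3). Within ‘NCGR1363’ at 42 d, replicate 2 stood well below replicates 1 and 3, yet the highest treated library was still far below the lowest untreated one.

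On summed counts, FvH4_2g14690 was 156-fold (53 to 756) higher at 0 h than at 42 d in ‘Alta’ crowns and 28.5-fold (25.3 to 32.4) higher in ‘NCGR1363’ crowns. The levels left were 0.643% (0.132 to 1.89%) and 3.5% (3.09 to 3.96%). ‘NCGR1363’ was above ‘Alta’ by 9.39-fold (8.71 to 10.1) before and by 51.2-fold (17.3 to 250) after treatment, the latter against 3 counts. The intervals cover counting error only and leave out the spread between replicates, which was wide for FvH4_2g14690. The test in ‘NCGR1363’ crowns gave a log2 fold change of -4.85 (SE 0.35, edgeR FDR 1.5e-06). This gene alone had 2 annotated isoforms, with coding sequences of the same length; the second took 29 of the counts (0.851%) in ‘NCGR1363’ crown 0 h replicate 1, 13 (0.683%) in replicate 3, and otherwise only 2 counts in ‘NCGR1363’ leaf 42 d replicate 3.

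The nitronate monooxygenase-like gene FvH4_2g11900 behaved differently in ‘NCGR1363’. Untreated ‘Alta’ crowns held 47, 31 and 34 counts (2.15 ± 0.394 CPM, n = 3), and at 42 d ‘Alta’ crowns held 1 and 0, with 2 in replicate 3. ‘NCGR1363’ crowns held 25, 32 and 28 counts at 0 h (1.56 ± 0.227 CPM, n = 3) and 46, 21 and 32 at 42 d (1.73 ± 0.572 CPM, n = 3). The treated and untreated ‘NCGR1363’ libraries overlapped, while the ‘Alta’ groups lay far apart.

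For FvH4_2g11900, the ‘Alta’ crown ratio of 0 h to 42 d was 70.5 (12.4 to 2810) against a single count, and 31.2 (10.4 to 153) with replicate 3 included. The level left was 1.42% (0.0356 to 8.06%), or 3.21% with replicate 3, against 112% (83.2 to 152%) in ‘NCGR1363’. No change passed the test in ‘NCGR1363’ crowns (log2 fold change 0.16, 95% interval -0.49 to 0.81, edgeR FDR 0.67), an interval that still allows a modest fall or rise. Without ‘NCGR1363’ crown 42 d replicate 1 the estimate was -0.13 (FDR 0.73). ‘NCGR1363’ was at 0.721 (0.538 to 0.965) of ‘Alta’ at 0 h and 57.1-fold (10 to 2280) above it at 42 d.

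**Figure D2:**
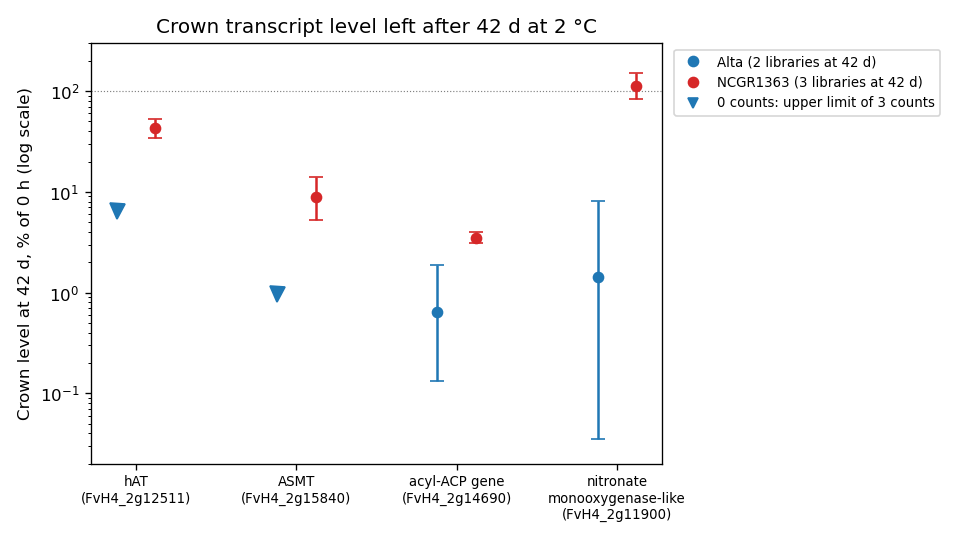
Crown transcript level at 42 d as a percentage of the 0 h level, on a log axis, from summed counts in ‘Alta’ (blue, replicates 1 and 2 at 42 d) and ‘NCGR1363’ (red, 3 replicates); bars are exact 95% counting intervals, and triangles are the limits of 3 counts where the count was 0. The level left in ‘NCGR1363’ ran from 3.5% for the acyl-[acyl-carrier-protein] gene to 112% for the nitronate monooxygenase-like gene, and in ‘Alta’ the estimates and 3-count limits were at most 6.44%, with exact upper bounds of 8.12% for the hAT gene and 8.06% for FvH4_2g11900.

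In ‘NCGR1363’ crowns, then, 3 of the 4 genes fell and none rose, where, as background, 29.8% of the 19108 genes tested were called lower and 29.1% higher (58.9% in either direction). ASMT passed the filter on low values only through its untreated libraries, so a call on it could only be a fall and adds nothing to that count. A majority of tested genes differed between 0 h and 42 d in these crowns, so a call in itself sets no gene apart. The p-values measure the spread between the 3 libraries of a group, which the study describes as biological replicates of a clonal plant.

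Set against coding length, the order of the genes in untreated crowns depended on genotype. In ‘Alta’ the acyl-[acyl-carrier-protein] gene FvH4_2g14690 stood at 12 CPM per kb of coding sequence, ASMT (FvH4_2g15840) at 8.72, the nitronate monooxygenase-like gene FvH4_2g11900 at 4.59 and the hAT gene FvH4_2g12511 at 0.664. In ‘NCGR1363’ the same level per kb was 113, 3.53, 3.34 and 2.43. The first gene led in both, while in ‘NCGR1363’ the other genes lay close together, and ASMT and the nitronate monooxygenase-like gene differed there by less than their spread between libraries. The coding sequences are 1182, 1083, 468 and 2157 nucleotides long in the same order. Reads were mapped to whole predicted mRNAs, in which these sequences begin at nucleotide 170, 173, 1 and 24. Levels per kb of coding sequence therefore compare the genes only roughly.

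In ‘NCGR1363’ each of the 4 genes stood at a higher level in untreated crowns than in untreated leaves. Their leaf levels were so low that, where they passed the filter at 0 h or at 42 d, they did so only through the crown libraries. That fixed the direction of any call. Nothing is therefore read from how many were called or from the FDRs printed below with the sizes. Over all genes, 32.6% of the 19309 tested at 0 h were higher in crown and 33.1% lower (65.7% in either direction), and 27.1% of 19241 at 42 d were higher and 28.4% lower (55.5%). These comparisons share the ‘NCGR1363’ crown libraries with the test of the cold response, and the sizes for each gene follow.

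The hAT gene FvH4_2g12511 had 0 counts in all 6 ‘NCGR1363’ leaf libraries, so crowns were at least 70.8-fold higher at 0 h (edgeR FDR 1e-04) and at least 33.6-fold higher at 42 d (FDR 0.00084). In ‘Alta’ leaves it had 0, 0 and 0 counts at 0 h and 0, 2 and 2 at 42 d. The leaves were thus at or near 0 in both genotypes.

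ASMT (FvH4_2g15840) was listed with at most 3 counts in any leaf library. ‘NCGR1363’ leaves held 1, 0 and 3 counts at 0 h and 1, 2 and 0 at 42 d, and ‘Alta’ leaves 2, 1 and 0, then 1, 0 and 0. At 0 h the crown of ‘NCGR1363’ exceeded its leaf by 38.7-fold (14.9 to 143), with a fitted log2 difference of 5.09 (SE 0.58, edgeR FDR 2e-04), which became 6.43 (FDR 0.00025) without leaf 0 h replicate 3, the library with 3 of the 4 leaf counts. At 42 d, 19 counts in crowns stood against 3 in leaves, a ratio of 5.03 (1.48 to 26.5), which was under the filter on low values. Without that filter the difference missed the threshold (FDR 0.074), and in a fit over 23 libraries it passed (FDR 0.02).

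The acyl-[acyl-carrier-protein] gene FvH4_2g14690 had 0 counts in all untreated leaves. At 42 d the leaves held 1, 1 and 3 counts in ‘Alta’ and 1, 0 and 2 in ‘NCGR1363’. Untreated ‘NCGR1363’ crowns were at least 1820-fold above untreated leaves (edgeR FDR 1.8e-05), beyond the intervals of ASMT and FvH4_2g11900. The hAT gene, also at 0 in these leaves, has no upper limit and cannot be ranked against it. At 42 d the ratio was 70.4 (23.8 to 343), and the fitted log2 difference 5.91 (SE 0.90, FDR 0.002).

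Only the nitronate monooxygenase-like gene FvH4_2g11900 reached more than 3 counts in a leaf library. ‘NCGR1363’ leaves held 1, 1 and 0 counts at 0 h (0.0466 ± 0.0411 CPM, n = 3) and 7, 7 and 13 at 42 d (0.592 ± 0.124 CPM, n = 3). ‘Alta’ leaves held 0, 0 and 0, then 0, 1 and 0. Every treated ‘NCGR1363’ leaf library was above every other leaf library.

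The crown of ‘NCGR1363’ exceeded its leaf for FvH4_2g11900 by 31.7-fold (8.5 to 266) at 0 h (log2 difference 4.72, SE 0.56, edgeR FDR 0.00023). At 42 d the excess was 2.91-fold (1.89 to 4.63), with a log2 difference of 1.5 (SE 0.37, FDR 0.014). The summed leaf counts were 2 at 0 h and 27 at 42 d, a 12.2-fold (3.07 to 106) ratio, and treated ‘NCGR1363’ leaves were 24.9-fold (4.11 to 1020) above treated ‘Alta’ leaves, which held 1 count. The cold response of leaves exceeded that of crowns in ‘NCGR1363’ by 3.26 on the log2 scale (SE 0.70, edgeR FDR 0.0082), in a test of the difference added after the data were seen, for which 10.3% of genes were called in the same direction and 10.5% in the other (20.8% in all).

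None of the 4 genes passed the filter of the 4 leaf comparisons, which takes CPM on library totals without TMM scaling. On that scale FvH4_2g11900 stood at 0.499, 0.473 and 0.712 CPM in treated ‘NCGR1363’ leaves, with 1 library at 0.5 or more, while with TMM scaling 2 were. No member count can therefore be set against the background of these comparisons. With cold, 27.4% of genes rose and 28.4% fell in ‘Alta’ leaves (55.9% in all), and 17% rose and 14.3% fell in ‘NCGR1363’ leaves (31.4%). Between genotypes, 9.4% were higher and 9.31% lower in ‘NCGR1363’ leaves at 0 h (18.7%), and 7.38% higher and 7.85% lower at 42 d (15.2%). With the filter removed, FvH4_2g11900 passed for cold in ‘NCGR1363’ leaves (log2 fold change 3.40, edgeR FDR 0.021) and for genotype at 42 d (4.15, FDR 0.036), and a fit over 23 libraries called both as well (FDR 0.00063 and 0.00042). The hAT gene FvH4_2g12511 was called for genotype at 42 d in the fit over 23 libraries (FDR 0.045), on 4 counts in ‘Alta’ leaves against 0, and was not called without the filter (FDR 0.26). No other leaf contrast of the 4 genes passed in either of these fits.

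In untreated ‘Alta’, given as a description, the crown stood above the leaf for each gene: at least 16.4-fold for the hAT gene FvH4_2g12511, 108-fold (36.8 to 526) for ASMT (FvH4_2g15840), at least 164-fold for FvH4_2g14690 and at least 24.7-fold for FvH4_2g11900. For all 4 genes, treated ‘Alta’ crowns were thus at leaf-like counts. Replicate 3, with its leaf-like profile, held 0, 0, 0 and 2 counts in the same order, close to the other treated ‘Alta’ crown libraries.

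Of the other O-methyltransferases in the interval, FvH4_2g15801 and FvH4_2g15891 were at 0 in all 24 libraries. Deposited annotation describes FvH4_2g15891, not FvH4_2g15840, as acetylserotonin O-methyltransferase-like. FvH4_2g15880 held 4, 33 and 12 counts in untreated ‘Alta’ crowns, 0 in all treated ones, 6, 8 and 0 in untreated and 0, 1 and 3 in treated ‘NCGR1363’ crowns, and at most 1 in any leaf. Its untreated replicates spread widely, and it was under the filter in ‘NCGR1363’.

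The second nitronate monooxygenase-like gene, FvH4_2g11890, precedes FvH4_2g11900 in the order of gene IDs and shares its description. Whether reads were split between them was not tested. FvH4_2g11890 had 0 counts in all 12 ‘Alta’ libraries. In ‘NCGR1363’ it held 6, 1 and 3 counts in untreated crowns, 5, 2 and 6 in treated crowns, 4, 5 and 2 in untreated leaves and 6, 7 and 7 in treated leaves. Low counts were thus present in every ‘NCGR1363’ library and in no ‘Alta’ library. The transposase-like genes FvH4_2g14281 and FvH4_2g18091, both annotated as RICESLEEPER 2 proteins with a BED zinc finger, had 0 counts in the 11 crown libraries.

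Among 7 fatty acyl genes of the interval, 6 were tested in ‘NCGR1363’ crowns, 3 fell and none rose (background 29.8% lower and 29.1% higher), with a median log2 fold change of -0.41 against 0.00 over all genes. One of the 3 is the selected gene FvH4_2g14690. The others that fell were FvH4_2g13610, a probable peroxisomal acyl-activating enzyme (-0.80, SE 0.10, edgeR FDR 5.4e-05), and FvH4_2g17370, a mitochondrial acyl-coenzyme A thioesterase (-0.62, SE 0.08, FDR 6.2e-05). Those that were not called had log2 fold changes of 0.46 for the very-long-chain 3-oxoacyl-CoA synthase FvH4_2g12940 (FDR 0.34), 0.09 for the glycerol-3-phosphate acyltransferase FvH4_2g16380 (FDR 0.31) and -0.21 for the oleoyl-acyl carrier protein thioesterase FvH4_2g18600 (FDR 0.075). In leaves the 4 genes of the group that were tested all fell with cold in both genotypes, with medians of -0.80 in ‘Alta’ and -0.61 in ‘NCGR1363’, where 28.4% and 14.3% of all genes fell. The ‘NCGR1363’ leaf calls lay close to the threshold (FDR 0.023 to 0.047), in a comparison whose number of calls ran from 2673 to 7487 when a library was left out. The fall of FvH4_2g14690 in ‘NCGR1363’ crowns was larger than any of these.

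None of the genes beside the 4 in ID order was both expressed in untreated ‘Alta’ crowns and at or near 0 in treated ones. Of 16 such neighbours, 9 were under the filter in ‘NCGR1363’ crowns and held at most 7 counts in any library. Of the 7 tested, 1 rose (FvH4_2g11920, 0.58, SE 0.07, edgeR FDR 8.4e-05) and 2 fell (background 29.1% higher and 29.8% lower), which is no more than the background gives for the falls. In ‘NCGR1363’, 4 of the 7 were higher in crown than in leaf at 0 h and 6 at 42 d (background 32.6% and 27.1%), and none was lower.

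The genes that fell were the benzyl alcohol O-benzoyltransferase FvH4_2g12510 (-1.46, SE 0.17, edgeR FDR 3.4e-05), which precedes the hAT gene FvH4_2g12511 (-1.21), and the ALG13-like glycosyltransferase FvH4_2g14670 (-0.64, SE 0.09, FDR 0.00013), which precedes FvH4_2g14690. FvH4_2g12510 was also lower in treated ‘Alta’ crowns, with 125 and 642 counts after 2341, 2247 and 2249 at 0 h (22.2 ± 19.4 CPM, n = 2, against 132 ± 3.33 CPM, n = 3). Its treated libraries differed widely from each other, and the gene stayed well expressed in both. FvH4_2g14670 stood at 6.68 ± 1.39 CPM (n = 2) in treated and 24.4 ± 2.35 CPM (n = 3) in untreated ‘Alta’ crowns. Both neighbours were higher in crown than in leaf of ‘NCGR1363’, by 1.97 and 1.90 on the log2 scale at 0 h (FDR 1.6e-05 and 0.0016) and by 2.75 and 2.00 at 42 d (FDR 0.00038 and 0.0063).

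**Figure D3:**
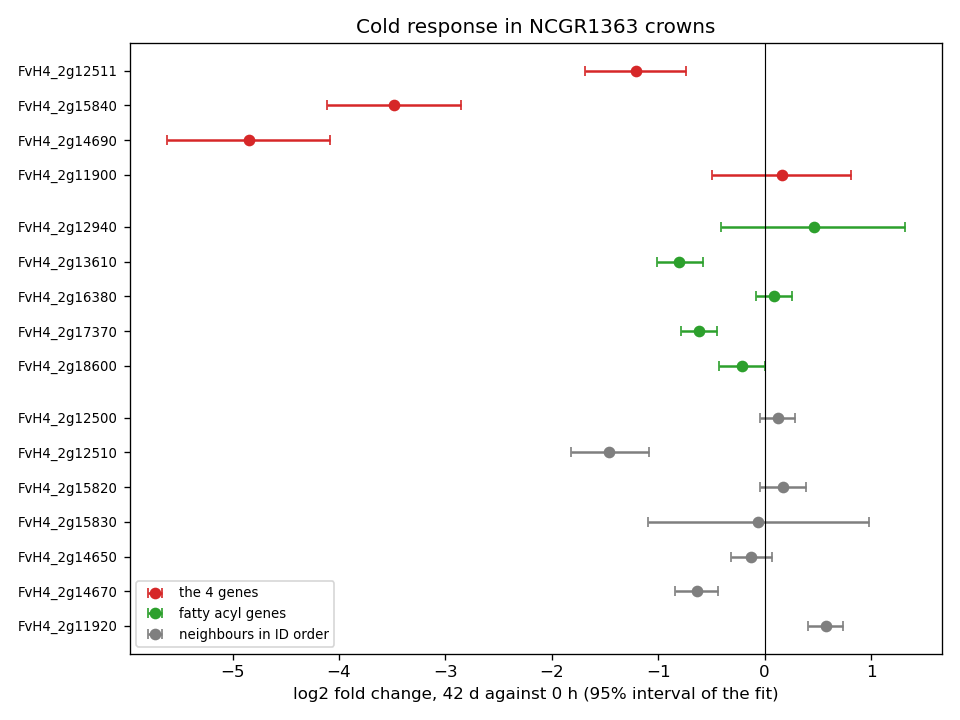
Fitted log2 fold change of 42 d against 0 h in ‘NCGR1363’ crowns, with the 95% interval of the fit, for the 4 genes (red), the other tested fatty acyl genes of the interval (green) and the tested neighbours in ID order (grey). The falls of FvH4_2g14690 (-4.85) and FvH4_2g15840 (-3.48) lie beyond every neighbour, the lowest of which is at -1.46, and the interval of FvH4_2g11900 spans 0.

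A near-complete loss in ‘Alta’ crowns was not limited to these genes. With a criterion set after the values were seen (at least 0.5 CPM in at least 2 untreated crown libraries and at most 3 counts in both treated ones), 14 of 480 expressed interval genes (2.92%) qualified, beside 595 expressed genes overall (3.21%). In ‘NCGR1363’ crowns, by the same limit in all 3 treated libraries, the numbers were 3 of 469 (0.64%) and 105 of 18488 (0.568%). The limit applies to 2 libraries in ‘Alta’ and to 3 in ‘NCGR1363’, so the shares of the genotypes are not on equal terms.

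Of the 10 interval genes that met the criterion beside the 4, only FvH4_2g13961 and FvH4_2g15880 had at most 3 counts in every leaf library. Of the 4 themselves, FvH4_2g11900 exceeded that leaf limit too, with up to 13 counts. Among the 10, 5 were higher in untreated ‘Alta’ leaves than in untreated ‘Alta’ crowns. Carbonic anhydrase 2-like (FvH4_2g14190) is an example, with 2.68 CPM in untreated ‘Alta’ crowns and 82.8 CPM in untreated ‘Alta’ leaves. The laccase-14-like gene FvH4_2g12620, of a family of copper oxidases that act on cell wall phenolics, stood at 0.61 and 74.3 CPM. Of the 10 genes, 6 had more than 3 counts in replicate 3 of treated ‘Alta’ crowns, whose profile was that of a leaf, with 1421 for FvH4_2g12620 and 2862 for FvH4_2g14190, whereas none of the 4 genes did.

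The genes whose levels followed the 4 most closely across 23 libraries (all but ‘Alta’ crown 42 d replicate 3) carry no annotation in the files used here. Among 20669 genes, on log2(CPM + 0.5), the nearest to the hAT gene FvH4_2g12511 was FvH4_2g02251 (Pearson r = 0.991), followed by FvH4_6g05440 and FvH4_1g06890 (both 0.982). Nearest to ASMT (FvH4_2g15840) were FvH4_6g26800 (0.986), FvH4_7g21790 (0.979) and FvH4_1g11280 (0.977). The points share libraries, and in each of these genes the leaves and the treated ‘Alta’ crowns make up most of the low end.

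For FvH4_2g14690 the nearest were FvH4_2g00610 (0.988), FvH4_3g30320 (0.985) and FvH4_1g07181 (0.984), and for FvH4_2g11900 they were FvH4_3g11180 (0.942), FvH4_4g04870 (0.931) and FvH4_2g01680 (0.930). As an example of the likeness, FvH4_2g02251 held 55, 57 and 48 counts in untreated and 0 and 3 in treated ‘Alta’ crowns, against 383, 475 and 431 and then 186, 163 and 206 in ‘NCGR1363’ crowns, with 0 in all leaves. Its order of groups was that of the hAT gene.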

How the data were processed

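RNA from crowns and leaves of both parents was sequenced from strand-specific TruSeq libraries. Per the labels and the study's methods, the authors trimmed the reads, mapped them with RSEM and Bowtie2 to the predicted mRNAs of the v4.a2 annotation, and deposited expected counts per gene and per isoform, which were whole numbers and were used as deposited. Fold changes and p-values were computed here.

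The 4 genes and the lists of relatives were chosen with earlier results of these data known. Named beside them were the related interval genes, the 2 genes on each side in ID order, and the 3 genes with the highest Pearson r on log2(CPM + 0.5). CPM used TMM scaling over 24 libraries. Tests were edgeR 4.0.16 quasi-likelihood F-tests (R 4.3.3) on the 6 libraries of each comparison, for genes at 0.5 CPM or more (here on library totals, before TMM) in at least 2 libraries, with Benjamini-Hochberg adjustment over all genes and a threshold of 0.05. The tool was tested on simulated data. Ratios came from summed counts and TMM library sizes, with exact 95% binomial intervals (scipy 1.17.1, Python 3.11.15). A count of 0 was given a limit of 3 counts over the group. Intervals cover counting error only, and the 3-count limits leave out the counting error of the other group. Totals of 12818719 to 18487934 counts set the precision. Alternatives were DESeq2 1.42.0 and its size factors, other filters, a fit over 23 libraries, a replicate block, and leaving out libraries. The tissue by cold interaction was added after seeing the data.

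Libraries of the same replicate number had correlations of deviations of 0.123, 0.397 and 0.238 for crown against leaf in ‘NCGR1363’ at 42 d. They were positive but weaker for cold in ‘NCGR1363’ crowns (0.0475, 0.221 and 0.193) and for crown against leaf at 0 h (0.0274, 0.111 and 0.0261). Each other comparison had a negative one. This goes by the data, not by the labels, and does not show whether samples were paired. The main tests were unpaired.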

Additional observations from a re-analysis of the deposited data

Results flagged for a closer look

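The response of the nitronate monooxygenase-like gene FvH4_2g11900 to cold differed between the tissues of ‘NCGR1363’. Crown counts were 25, 32 and 28 at 0 h and 46, 21 and 32 at 42 d, whereas leaf counts were 1, 1 and 0 and then 7, 7 and 13. The interaction, leaf response minus crown response, was 3.26 on the log2 scale (SE 0.70, edgeR FDR 0.0082 over 19910 genes, 12 libraries), and 10.3% of genes had a positive interaction past the threshold. All 3 treated leaf libraries were above all 3 untreated ones, and with each library left out in turn the estimate ranged from 2.82 to 3.66 (FDR 0.0081 to 0.024). The test was chosen after seeing the data and rests on 2 leaf counts at 0 h.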

How the results depend on the processing

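The calls on the 4 genes in ‘NCGR1363’ crowns and between ‘NCGR1363’ tissues kept their direction and side of the threshold under all 6 alternatives, for the genes tested (all 4 in each, apart from ASMT between tissues at 42 d, which fell on either side as given above). Between tissues, and for ASMT (FvH4_2g15840) in ‘NCGR1363’ crowns, the filter of the main fit had fixed that direction. In ‘NCGR1363’ crowns the edgeR or DESeq2 FDR ranged from 3.8e-05 to 0.014 for FvH4_2g12511, from 7.3e-14 to 2.1e-05 for FvH4_2g15840, from 1.2e-13 to 2.3e-06 for FvH4_2g14690 and from 0.66 to 0.78 for FvH4_2g11900. With each library left out, log2 fold changes ranged from -1.36 to -1.08, -3.57 to -3.35, -5.15 to -4.46 and -0.13 to 0.32 in the same order; the last turned negative (-0.13, FDR 0.73) only without ‘NCGR1363’ crown 42 d replicate 1. The level left in treated ‘Alta’ crowns stayed within its counting interval under library totals, DESeq2 size factors and all 3 libraries. Replicate 3 had the profile of an untreated leaf, where these genes are at or near 0. Adding it could therefore only leave the level low, and is no check on it. Where the count was 0, rescaling moved only the 3-count limit.

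Counts of genes called moved more. The fit over 23 libraries called 7462 genes for cold in ‘NCGR1363’ crowns (11264 in the comparison's own fit), 9296 for cold in ‘NCGR1363’ leaves (5784) and 7297 for genotype in leaves at 42 d (2827), where DESeq2 called 4498. Leaving out libraries gave 2673 to 7487 for cold in ‘NCGR1363’ leaves, 1272 to 6228 for genotype in leaves at 0 h (3426), 570 to 5512 at 42 d and 2947 to 6738 for the interaction (4143). The causes were not tested, and none of these moved a call on the 4 genes in crowns. A replicate block called 601 genes for genotype in leaves at 0 h and 11617 for cold in ‘NCGR1363’ crowns; with the block FvH4_2g11900 stood at 1.48 (FDR 0.044) between tissues at 42 d, and no call on the 4 genes changed. With a pseudocount of 0.1, 3, 2, 2 and 1 of the 3 nearest genes were shared. The interaction of FvH4_2g14690 (8.17, FDR 0.11) passed with DESeq2 (7.12, FDR 0.00013) and without ‘NCGR1363’ crown 42 d replicate 2 (7.76, FDR 0.025). Untreated ‘NCGR1363’ leaves held 0 counts of this gene, so its leaf level could not fall while its crown level did. The direction was thus fixed, and nothing is read from these calls. Depth limits the leaf values of all 4 genes, which rest on at most 13 counts a library, and the treated ‘Alta’ crown values, which rest on 2 libraries.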
